A study of Homo sapiens with 27 samples.

Results

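The mRNA response to dexamethasone on top of lipopolysaccharide (LPS) was measured in THP-1 macrophages. It was taken as the contrast of 4 RNA-seq libraries of cells given LPS plus dexamethasone (LPS+Dex) with 4 libraries of cells given LPS alone, which are 8 of the 27 libraries of the series. All genes of the count table were members, and 13327 of the 20453 had enough reads to be tested. THP-1 is a human leukaemia line of monocytic cells. Every culture had first been exposed to the phorbol ester PMA at 10 ng/ml for 24 h, which turns the monocytes into adherent macrophage-like cells, and had then been placed in fresh medium. The vehicle cells received ethanol and PBS, the LPS cells 100 ng/ml LPS, and the LPS+Dex cells 100 ng/ml LPS with 1 µM dexamethasone, all for 3 h. No group had dexamethasone without LPS, so the contrast gives the effect of dexamethasone in LPS-treated cells only, and the labels do not say in which order the agents were added. The 4 vehicle libraries serve here as the level before LPS. RNA was poly(A)-selected from 3 M cells per sample, with an average RNA integrity number of 7.7. No label says that the replicates of a group came from separate cultures, so p-values measure the spread between these samples, which may be technical.

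Dexamethasone is a synthetic glucocorticoid. It binds the glucocorticoid receptor, which is held in the cytoplasm by heat shock proteins and immunophilins, enters the nucleus with its ligand and binds palindromic response elements in DNA, often far from the genes it activates. In macrophages it is best known for lowering cytokine production after Toll-like receptor signals. Known routes are contact of the receptor with NF-kB and AP-1, and the induction of inhibitors such as the phosphatase DUSP1, the leucine zipper protein GILZ (gene TSC22D3) and the mRNA decay factor ZFP36. The same hormone also raises genes for the uptake of dying cells, for metal binding and for lipid handling.

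Each LPS library held between 20.9 and 24.9 M counts, each LPS+Dex library between 19 and 21.7 M. Mitochondrially encoded RNA took 0.0999% to 0.317% of counts over the 12 RNA libraries, and correlations of log2 CPM (counts of a gene per 1 M counts of its library) were 0.988 to 0.9943 among the LPS libraries, 0.9893 to 0.9942 among the LPS+Dex libraries and 0.961 to 0.9742 between the groups. All 12 markers of macrophages and monocytes were present, and their summed CPM was 4105 to 4592 with LPS and 4143 to 4406 with LPS+Dex. Summed markers of B cells, erythroid cells and epithelium reached at most 1.72, 1.62 and 0.316 CPM in any of the 8 libraries, with MS4A1, HBB, HBA1 and EPCAM at 0 in all. T cell markers summed to 35.9 to 39.5 CPM with LPS and 32.9 to 36.2 with LPS+Dex, the most abundant being CD4, which monocytes also carry, and CD3G was at 0. Granulocyte markers summed to 351 to 558 CPM with LPS and 542 to 664 with LPS+Dex, mostly from the granule protein gene AZU1, and FCGR3B and CEACAM8 were at 0. Of their 4 tested members 1, the protease gene PRTN3, was called higher, by 0.60 ± 0.20 (adjusted p = 0.0353), with overlapping groups; the call was lost without LPS replicate 1, 3 or 4 or LPS+Dex replicate 2, 3 or 4 (change 0.48 to 0.63, adjusted p = 0.062 to 0.108). AZU1 was not called (0.34 ± 0.16, adjusted p = 0.121), but passed as higher without LPS replicate 2 (change 0.46, adjusted p = 0.0405). Natural killer cell markers summed to 16.7 to 24.7 CPM with LPS and 27.6 to 40.3 with LPS+Dex, and GNLY, a cytotoxic granule protein, rose by 0.77 ± 0.16. The part of these markers in the results was not tested. LPS replicates 2 and 4 stood apart. Replicate 4 was the highest of the 4 LPS libraries in 102 of the 175 genes that rose at least 4-fold (58.3%). Over all tested genes it was the highest in 25.2%. In the 175 genes it lay a median of 4.05% of the way from the mean of the other LPS libraries to the LPS+Dex mean. FKBP5, for example, was at 71.8, 52.9, 70.4 and 159.8 CPM in LPS replicates 1 to 4. LPS replicate 2 was the lowest of the 4 LPS libraries in 42 of the 80 genes that fell at least 4-fold. There it lay a median of 18.2% of the way from the mean of the other LPS libraries to the LPS+Dex mean. Over all 13327 tested genes it was the lowest in 4967 and the highest in 36.4%. The part of these libraries in the results was not tested. Named genes that move without replicate 4 are given both ways. Counts within lists that moved are given as ranges over the alternative runs at the end.

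Dexamethasone changed a large share of the transcriptome, upwards and downwards about equally often, and the largest rises were greater than the largest falls. With edgeR's quasi-likelihood test and Benjamini-Hochberg adjustment, 2070 genes were called higher in LPS+Dex (15.5% of those tested) and 2053 lower (15.4%), 4123 in all (30.9%). Of all tested genes, called or not, 17.8% were higher and 16.4% lower with no overlap in CPM between the LPS and LPS+Dex libraries. These shares are the background for every count of genes and every mention of separate groups given here. The median log2 fold change was 0.60 among the genes called higher and -0.64 among those called lower, and the median standard error (SE) over all tested genes was 0.13. At least 2-fold changes were called for 556 genes upwards (4.17%) and 539 downwards (4.04%), at least 4-fold changes for 175 and 80, and at least 8-fold changes for 68 and 14. No call was made for 9204 genes. For 5030 of these the 95% interval of the log2 fold change lay within 0.5 of 0, and for the other 4174 it was wider. By summed CPM the order was the other way round. As a percentage of 1 M CPM, genes called at least 2-fold higher went from 1.43% with LPS to 4.46% with LPS+Dex. Those called at least 2-fold lower went from 6.74% to 2.56%. The CPM used scaled library sizes, so these are not exact shares of all counts. The plot of change against level shows all tested genes. In bulk RNA, fewer cells with a transcript and less of it per cell cannot be told apart.

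**Figure D1:**
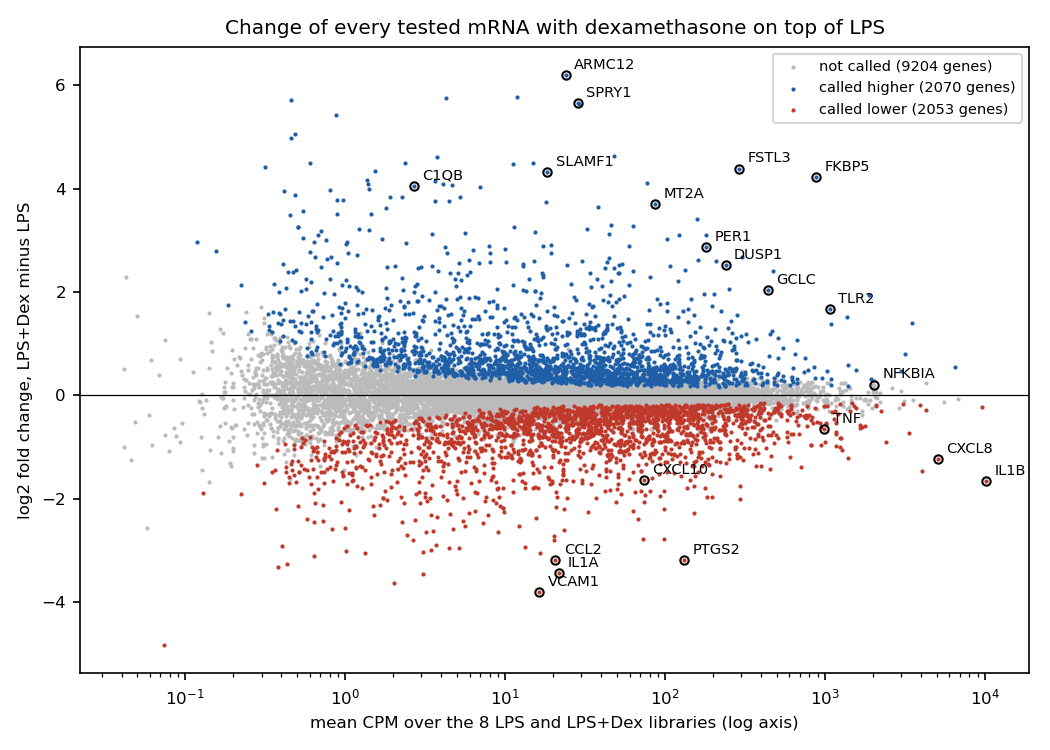
Log2 fold change of each tested gene (LPS+Dex minus LPS, vertical axis) against its mean CPM over the 8 libraries (horizontal log axis), with 2070 genes called higher in blue, 2053 called lower in red and 9204 not called in grey. The circled genes are described in the text, from ARMC12 at 6.19 to VCAM1 at -3.81; the abundant cytokines IL1B and CXCL8 lie at the far right, below 0.

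Among genes that averaged 5 CPM or more and whose groups were separate, the 10 largest rises were those of ARMC12, ZBTB16, SPRY1, RP1L1, CLTCL1, PHKA1, PLEKHA7, FSTL3, SLAMF1 and FKBP5. FKBP5 encodes the immunophilin FKBP51, which lowers the hormone affinity of the glucocorticoid receptor and is a standard reporter of its activity. It stood at 71.8, 52.9, 70.4 and 159.8 CPM with LPS and 1842, 1575, 1809.8 and 1429.8 with LPS+Dex, and 20.4 on average in vehicle. The groups were far apart even though LPS replicate 4 was above the other LPS libraries, and FKBP5 rose by 4.23 ± 0.32 on the log2 scale (estimate ± SE, adjusted p = 2.3e-07). ARMC12, an armadillo-repeat gene best known from sperm mitochondria, lies next to FKBP5 among the tested genes of chromosome 6: FKBP5 spans 35573590 to 35728583 and ARMC12 35731524 to 35749079 (GRCh38), with 2940 bases between them. ARMC12 was at 0.443, 0.364, 0.183 and 1.51 CPM with LPS and 43, 46.8, 39.9 and 59.3 with LPS+Dex, a rise of 6.19 ± 0.37, or 7.14 without LPS replicate 4. It was nearly silent in 3 of the LPS libraries and clearly present in all 4 LPS+Dex libraries.

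ZBTB16 encodes the zinc finger repressor PLZF, a classical glucocorticoid target in many tissues. Its counts were 0, 1, 1 and 35 in the LPS libraries and 518, 468, 439 and 388 in the LPS+Dex libraries. Nearly all of the LPS counts were in replicate 4. The fitted change was 5.77 ± 0.56 with all libraries. Without LPS replicate 4 only 2 counts remained in the LPS group, and the ratio of LPS+Dex to LPS was 774 with a 95% counting interval of 214 to 6394. SPRY1, an inhibitor of growth factor signalling to RAS and ERK, went from 0.975, 0.416, 0.733 and 2.2 CPM to 56.3, 54.3, 62.9 and 50.9 (log2 change 5.66 ± 0.30, or 6.27 without LPS replicate 4). PHKA1, a regulatory subunit of phosphorylase kinase in glycogen breakdown, went from 0.886, 0.624, 0.733 and 2.67 CPM to 29, 28.2, 28.7 and 28.4 (4.51 ± 0.30, or 5.24 without that library). For SPRY1 and PHKA1 the highest LPS value was still many times below the lowest LPS+Dex value. FSTL3, a secreted protein that binds and neutralises activins, rose from 17.6, 20.9, 22.6 and 44.7 CPM to 527, 545, 566 and 589, by 4.39 ± 0.24, and SLAMF1, a receptor of the signalling lymphocyte activation family, from 1.59, 1.25, 1.33 and 2.72 to 37.8, 32.3, 35.7 and 34.2, by 4.33 ± 0.21. All of these were low without the hormone, and separate groups were a condition of their choice. CLTCL1, a clathrin heavy chain, rose by 4.62 ± 0.25, PLEKHA7, a component of cell junctions, by 4.49 ± 0.21, and RP1L1, a gene of photoreceptor cilia, by 5.64 ± 0.24.

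**Figure D2:**
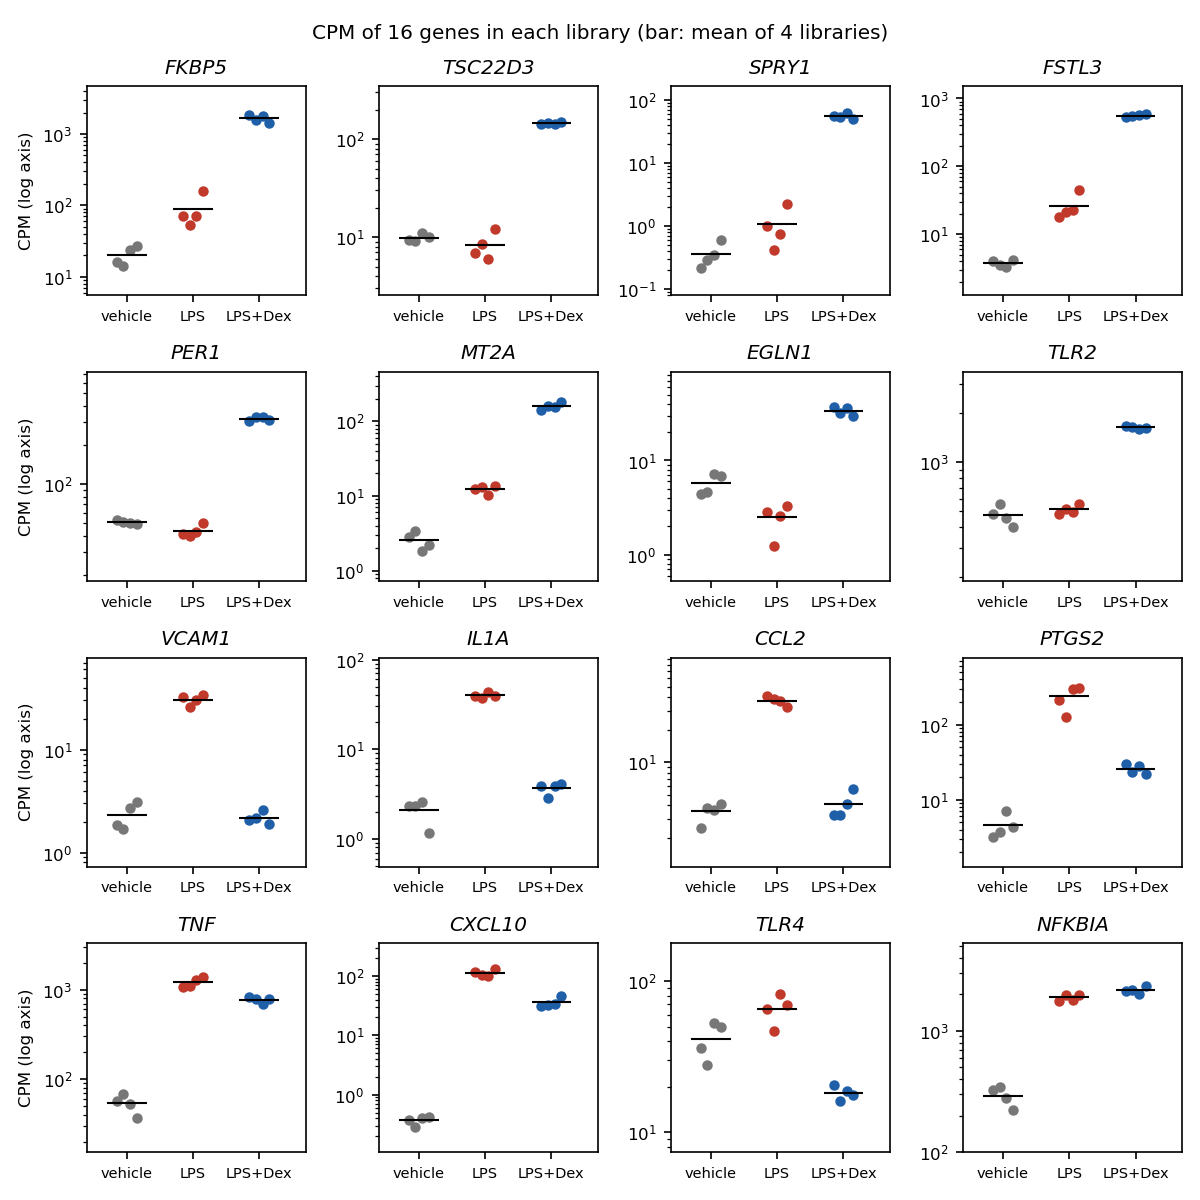
CPM (log axis, a panel for each gene) in each of the 4 vehicle, 4 LPS and 4 LPS+Dex libraries, with a bar at the mean. FKBP5 to TLR2 were higher in all LPS+Dex libraries than in any LPS library, VCAM1 to TLR4 lower, and NFKBIA was not called with all 12 libraries. Among the rising genes, LPS replicate 4, the rightmost red point, is the highest LPS library for FKBP5, TSC22D3, SPRY1, FSTL3, PER1, EGLN1 and TLR2. For MT2A it is about level with another LPS library.

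The core sequence of a glucocorticoid response element was rare in promoters. RefSeq promoter windows (GRCh38.p14, 250 bases before to 50 after a start site) matched 10707 of the 13327 tested genes with 15640 windows. The letters GNACANNNTGTNC, searched on both strands, were in 40 windows (0.256%). They were in 6 of the 676 windows of genes called at least 2-fold higher (0.888%), in 4 of the 183 windows of genes called at least 4-fold higher (2.19%) and in 2 of the 659 windows of genes called at least 2-fold lower (0.303%). For 3 genes that rose at least 4-fold the matches are printed with their flanks, 5′ to 3′ on the strand of the gene, to show what such an element looks like upstream of an induced gene. Capitals mark the 13 matching bases, and the genes were chosen for these matches after their values were seen.
TRIM63, chr1:26067805-26067857, minus strand: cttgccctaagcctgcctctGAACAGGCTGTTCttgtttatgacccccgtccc
C1QB, chr1:22652986-22653028, plus strand: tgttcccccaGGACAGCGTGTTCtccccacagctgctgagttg
MAP3K6, chr1:27367081-27367133, minus strand: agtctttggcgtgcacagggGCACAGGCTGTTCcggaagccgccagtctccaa
TRIM63, a ubiquitin ligase of muscle atrophy, rose by 5.76 ± 0.33 (6.65 without LPS replicate 4) from 0 to 0.345 CPM to 7.86 to 8.84. C1QB, a chain of complement C1q, rose by 4.06 ± 0.32, and MAP3K6, a stress-activated kinase, by 2.33 ± 0.16. A match in a window is a description and not a measured binding site, and the windows say nothing of elements farther away.

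Of 47 tested genes on a list of textbook glucocorticoid-inducible genes, 28 rose and 7 fell, with a median log2 change of 0.94 against 0.011 over all tested genes. Among its signalling genes, TSC22D3 was at 6.82, 8.52, 6 and 12 CPM with LPS and 142, 148, 143 and 148 with LPS+Dex, and DUSP1, the phosphatase that switches off p38 and JNK, at 72.3, 90.4, 66.5 and 55.4 and 407, 405, 420.1 and 399. Neither gene had overlapping groups. TSC22D3 rose by 4.12 ± 0.17 (adjusted p = 8.67e-10) and DUSP1 by 2.52 ± 0.14 (adjusted p = 8.93e-09), and PDK4, a kinase that shuts off pyruvate dehydrogenase, rose by 4.10 ± 0.30 from a mean of 0.438 CPM. Among its transcription factors, PER1, a core repressor of the circadian clock, rose from 41.1, 40.1, 42.5 and 50.4 CPM to 308, 328, 325 and 313, by 2.87 ± 0.077. FOXO1 rose by 2.59 ± 0.26 and KLF4 by 2.21 ± 0.10. ZFP36, which binds AU-rich elements and destabilises cytokine mRNAs, rose less, by 0.71 ± 0.12, from 71.3 to 89.3 CPM to 114 to 151. Among the remaining genes ANGPTL4, an inhibitor of lipoprotein lipase, rose by 2.66 ± 0.15, and ANXA1, the annexin long linked to glucocorticoid action, rose by 0.31 ± 0.079, from 136, 126, 152 and 160.2 CPM to 194, 169, 171 and 176.

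Some listed targets moved the other way. SGK1, the serum- and glucocorticoid-regulated kinase, was at 352, 341, 368 and 323 CPM with LPS and 145, 158, 159 and 171 with LPS+Dex, so that it fell by 1.13 ± 0.077 (adjusted p = 7.81e-08) in spite of its name. RGS2 fell by 1.21 ± 0.12, THBD (thrombomodulin) by 0.89 ± 0.19 and CDKN1A (the cell cycle inhibitor p21) by 1.03 ± 0.11. The receptor gene itself, NR3C1, was at 122, 83, 137 and 139 CPM with LPS and 65.4, 47.7, 62.3 and 48.3 with LPS+Dex. The groups did not overlap, and NR3C1 fell by 1.11 ± 0.25 (adjusted p = 0.00409) to about its vehicle mean of 62 CPM. Of the 13 tested chaperones of the receptor, 4 rose and 1 fell. After FKBP5 the largest rise was that of DNAJB1, a co-chaperone of HSP70, at 0.96 ± 0.13. HSPA8 and HSPA4 had 95% intervals within 0.5 of 0. The enzyme HSD11B1, which turns inactive cortisone into cortisol, fell by 1.47 ± 0.13.

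Among 21 tested clock genes 6 rose and 6 fell. PER1 alone rose at least 2-fold. Its partner PER2 fell by 0.39 ± 0.11 and the activator BMAL1 by 0.68 ± 0.064, while the transcriptional repressors BHLHE40 and BHLHE41 (DEC1 and DEC2) fell by 1.47 ± 0.095 and 1.21 ± 0.13. The intervals of PER3 and CRY1 lay within 0.5 of 0. Of 13 tested Kruppel-like factors 6 rose and 3 fell: KLF4 and KLF15 rose by 2.21 ± 0.10 and 1.99 ± 0.26, KLF9, an established hormone target, by 1.08 ± 0.21, and KLF3 and KLF5 fell by 1.08 ± 0.17 and 1.07 ± 0.18. CEBPD, a C/EBP factor, went from 34.5 to 68.8 CPM to 112 to 156 and rose by 1.31 ± 0.19.

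All 6 tested metallothionein genes rose. These genes encode small cysteine-rich proteins that bind zinc and copper, and they lie in a row on chromosome 16. MT2A, the most abundant of them here in reads, was at 12.2, 13.4, 10.3 and 13.4 CPM with LPS and 140.5, 163, 156 and 183 with LPS+Dex. The libraries of each group were close together, and MT2A rose by 3.70 ± 0.15 (adjusted p = 7.46e-10). MT1M rose by 3.51 ± 0.39, MT1E by 2.75 ± 0.25, MT1G by 2.39 ± 0.43, MT1X by 2.38 ± 0.26 and MT1F by 2.08 ± 0.27; their mean CPM with LPS was between 0.136 and 1.63, and reads shared among such close copies may have been counted in the wrong member. The zinc exporter SLC30A1 rose by 1.43 ± 0.22. Over the 17 tested zinc transporters and sensors 5 rose and 2 fell.

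Of 33 tested scavenger and efferocytosis genes 12 rose, 3 fell and 18 were not called. Genes of complement C1q rose from low levels. C1QB was at 0.133, 0.312, 0.183 and 0.56 CPM with LPS and 3.58, 4.88, 5.85 and 5.99 with LPS+Dex, and C1QC at 0.0443, 0.208, 0.0458 and 0.172 and 1.61, 1.43, 2.06 and 1.53. C1QA had too few reads for the test, with raw counts of 1, 0, 3 and 1 with LPS and 9, 13, 14 and 11 with LPS+Dex. The LPS and LPS+Dex libraries of all 3 chains were separate, and C1QC rose by 3.78 ± 0.35. MFGE8, which bridges phosphatidylserine on dying cells to integrins, went from 14.8, 16.4, 16 and 15.6 CPM to 85, 94.3, 87.1 and 100.5 and rose by 2.55 ± 0.093. The receptor tyrosine kinase TYRO3 rose by 2.51 ± 0.17 and its relative MERTK by 0.59 ± 0.10, from 30.7 to 38.1 CPM to 47.4 to 52.3. MERTK stayed far below vehicle, with raw counts of 1026, 1020, 965 and 870 in LPS+Dex against 6830, 6382, 10886 and 10781 in vehicle. CD163, the haemoglobin scavenger receptor used as a marker of glucocorticoid-treated macrophages, was at 39.6, 37, 47.9 and 55.4 CPM with LPS and 119, 108, 124 and 115 with LPS+Dex. Its vehicle mean was 93.9, and with the hormone it rose by 1.37 ± 0.13 (adjusted p = 1.35e-06). OLR1, a receptor for oxidised low-density lipoprotein, fell by 2.07 ± 0.11. The complement receptor C3AR1 rose by 2.51 ± 0.16, from 5.98 to 9.18 CPM to 40.6 to 43.3, and the formyl peptide receptor FPR1 by 2.93 ± 0.35.

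Cytokine genes fell as a group: 32 of 49 tested were called lower and 6 higher, with a median log2 change of -1.11. All 7 tested members of the interleukin-1 (IL-1) family fell, with a median of -2.60. IL1A was at 39.5, 37.5, 44 and 39 CPM with LPS and 3.93, 2.87, 3.9 and 4.09 with LPS+Dex, and IL1B at 14677, 14641, 17540.0 and 14795 and 5189, 4810.5, 4815 and 4611. Both groups were separate for both genes. IL1A fell by 3.44 ± 0.18 (adjusted p = 7.28e-09) and kept 9.25% of its LPS level, and IL1B fell by 1.67 ± 0.10 (adjusted p = 3.74e-08) and kept 31.5%. IL1B was still the gene with the largest loss in CPM of all called genes. The family includes the natural antagonist: IL1RN, which blocks the IL-1 receptor, fell by 2.78 ± 0.097, from 170.5, 169, 184 and 166 CPM to 24, 21.9, 25 and 29.5, and so below its vehicle mean of 49.2. The alarmin IL33 fell by 3.04 ± 0.30 and IL36G by 2.60 ± 0.15. Several of these genes are neighbours on chromosome 2: IL1A, IL1B, IL36G, IL36B and IL1RN followed each other among the tested genes and all fell at least 2-fold.

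In the IL-6 and IL-12 families 6 of 10 tested genes fell and none rose (0 also at an unadjusted p under 0.05 and by DESeq2). IL6 was at 24.6, 28.1, 22.6 and 29.1 CPM with LPS and 4.53, 5.02, 6.02 and 4.63 with LPS+Dex, and fell by 2.37 ± 0.13 (adjusted p = 1.14e-08). IL12B, the shared subunit of IL-12 and IL-23, fell by 2.65 ± 0.23 from 5.09 to 6.19 CPM to 0.526 to 1.21, and IL23A, its partner in IL-23, by 2.26 ± 0.17, from 52.5 to 57.5 CPM to 8.56 to 16.2. LIF fell by 2.99 ± 0.27. EBI3 had a 95% interval within 0.5 of 0. IL10, the main anti-inflammatory cytokine of macrophages, was also lower, at 3.63, 2.13, 4.17 and 3.49 CPM with LPS and 1.26, 1, 1.57 and 1.58 with LPS+Dex, and fell by 1.32 ± 0.26 (adjusted p = 0.00118).

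The measured fall of tumour necrosis factor was smaller. TNF was at 1082, 1086, 1287 and 1378 CPM with LPS and 821, 783, 693 and 783 with LPS+Dex, against 53.4 in vehicle. Its groups were separate, and TNF fell by 0.65 ± 0.15 (adjusted p = 0.00389), keeping 63.7% of its LPS level. Of 13 tested members of its superfamily 9 fell and 1 rose. TNFSF15 fell by 2.28 ± 0.30, the death ligand TNFSF10 (TRAIL) by 2.13 ± 0.20, and TNFSF13 (APRIL) rose by 0.60 ± 0.17, or 0.48 without LPS+Dex replicate 3, when it was not called (adjusted p = 0.0569). IFNB1, the early type I interferon, was at 2.39, 3.9, 4.03 and 6.04 CPM with LPS and 2.22, 2.53, 1.46 and 2.29 with LPS+Dex. Here the groups overlapped, although IFNB1 was called lower by 0.94 ± 0.28 (adjusted p = 0.0202). It was not called without LPS replicate 4 (change -0.69, adjusted p = 0.0828) or without LPS+Dex replicate 3 (-0.81, adjusted p = 0.0601).

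Growth factors for myeloid cells went in both directions. CSF2 (GM-CSF) was at 9.21, 11.7, 8.98 and 6.38 CPM with LPS and 0.907, 0.622, 1.14 and 2.07 with LPS+Dex, and fell by 2.95 ± 0.29 (adjusted p = 2.88e-06). CSF3 (G-CSF), which drives neutrophil production, was at 4.39, 5.04, 5.87 and 6.64 and 28.8, 24.2, 28.8 and 31.9, and rose by 2.37 ± 0.14 (adjusted p = 1.75e-08). CSF1 (M-CSF), the survival factor of macrophages, rose by 0.90 ± 0.11, and KITLG (stem cell factor) fell by 2.54 ± 0.34. All of these groups were separate. Among the other cytokines EDN1 (endothelin-1), IL15 and PDGFB rose by 1.22 ± 0.13, 1.09 ± 0.14 and 0.89 ± 0.16, and the epidermal growth factor relatives EREG and HBEGF fell by 2.09 ± 0.36 and 1.63 ± 0.15.

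**Figure D3:**
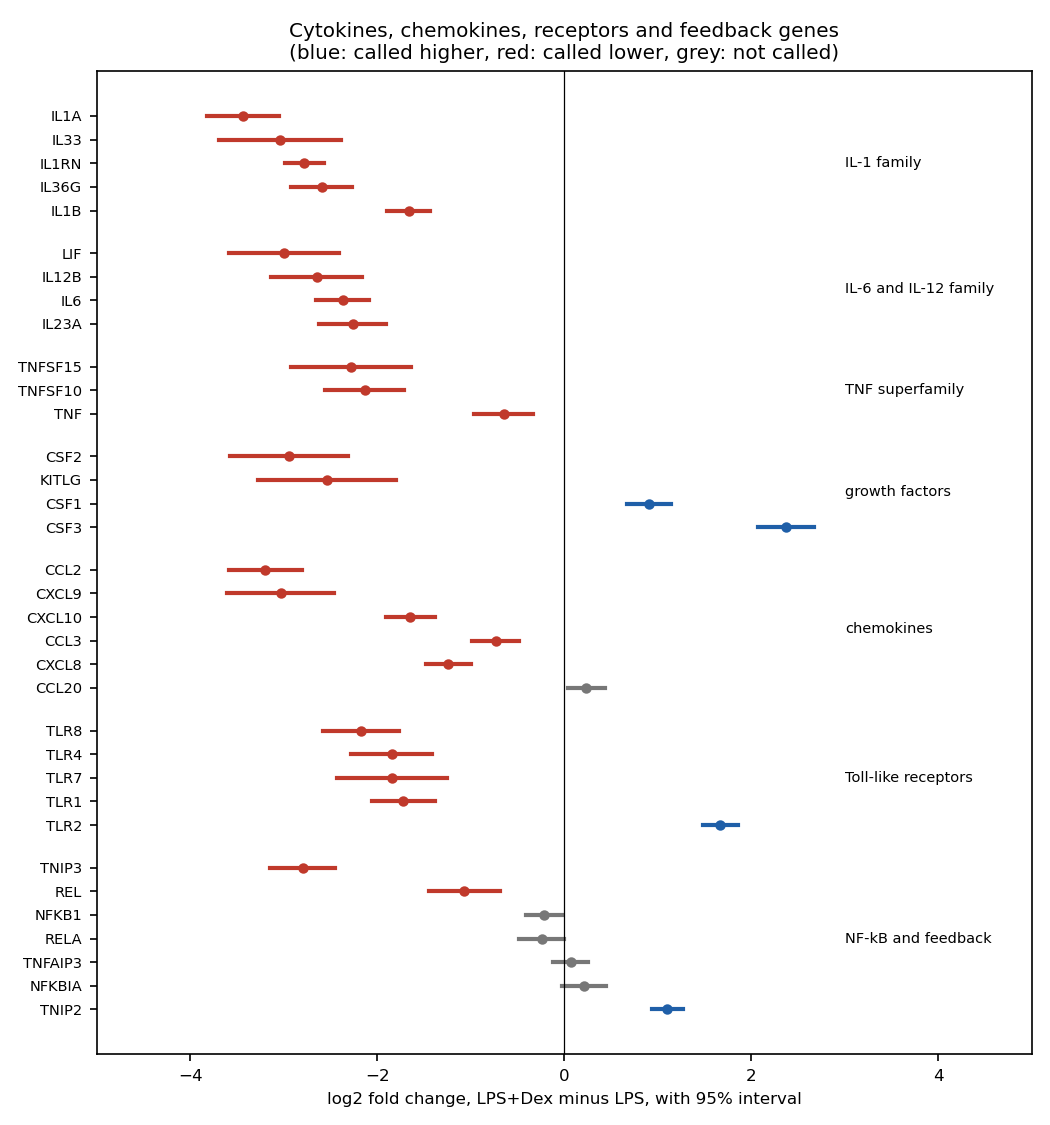
Log2 fold change (LPS+Dex minus LPS) with its 95% interval for named cytokines, chemokines, Toll-like receptors and NF-kB genes. Nearly all plotted cytokines and chemokines lie below 0, CSF1, CSF3, TLR2 and TNIP2 lie above it, and CCL20, NFKB1, RELA, TNFAIP3 and NFKBIA (grey) were not called with all 12 libraries.

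Of 29 tested chemokines 20 fell and 2 rose, with a median of -0.90. CCL2, which attracts monocytes, was at 40.8, 38.5, 37.1 and 32.3 CPM with LPS and 3.27, 3.25, 4.12 and 5.61 with LPS+Dex, near its vehicle mean of 3.5. It fell by 3.20 ± 0.18 (adjusted p = 1.38e-08) and kept 10.9% of its LPS level. All 3 ligands of the receptor CXCR3 fell: CXCL9 by 3.03 ± 0.27, CXCL11 by 1.96 ± 0.16 and CXCL10 by 1.65 ± 0.12, with CXCL10 at 115, 102, 101 and 131 CPM with LPS and 30.8, 32.9, 33.9 and 45.8 with LPS+Dex. These genes lie in a row on chromosome 4. Among the 6 tested neutrophil-attracting chemokines 5 fell. CXCL8 was at 6762, 6878, 8052 and 6992 CPM with LPS and 3418, 3009, 2991 and 2716 with LPS+Dex, and fell by 1.24 ± 0.11 (adjusted p = 1.19e-06). CXCL6, CXCL3 and CXCL2 fell by 1.38 ± 0.18, 1.14 ± 0.15 and 1.12 ± 0.14.

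CCL3 (MIP-1 alpha) was among the genes with the largest loss in CPM and fell by 0.74 ± 0.12, from 3875 to 4733 CPM to 2276 to 2674; reads shared with its copy CCL3L3 make its level uncertain. CCL20, which attracts dendritic cells and T helper cells, was at 1132, 1293, 1095 and 1082 CPM with LPS and 1352, 1389, 1299.6 and 1368 with LPS+Dex. Its log2 change was 0.23 ± 0.092 with a 95% interval of 0.035 to 0.43 (adjusted p = 0.0704) and it was not called, although it passed without LPS replicate 2 (change 0.29, adjusted p = 0.0277) or vehicle replicate 2 (0.23, adjusted p = 0.0167) and with only the 8 LPS and LPS+Dex libraries (0.22, adjusted p = 0.0156). CCL17 and CCL23 rose by 2.13 ± 0.27 and 0.89 ± 0.15, both from means under 5 CPM.

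Promoters of genes that fell held NF-kB letters more often than those of all genes. The kB letters GGGNNTTTCC (GGAAANNCCC on the other strand) were in 343 of 15640 windows (2.19%), in 25 of the 659 windows of genes called at least 2-fold lower (3.79%), in 7 of the 107 of genes called at least 4-fold lower (6.54%) and in 10 of the 676 of genes called at least 2-fold higher (1.48%). No test was made of these shares. The sites of IL6 and of 3 neutrophil-attracting chemokines that fell are printed in the same way, with the 10 matching bases in capitals. These genes too were chosen for their matches after their values were seen.
IL6, chr7:22727107-22727156, plus strand: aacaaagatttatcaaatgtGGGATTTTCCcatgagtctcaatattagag
CXCL2, chr4:74099244-74099293, minus strand: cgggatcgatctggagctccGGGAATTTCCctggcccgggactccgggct
CXCL3, chr4:74038739-74038788, minus strand: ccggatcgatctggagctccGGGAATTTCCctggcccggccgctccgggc
CXCL6, chr4:73836568-73836617, plus strand: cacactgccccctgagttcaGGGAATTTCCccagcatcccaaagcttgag
AP-1 letters (TGANTCA) were also more frequent in genes called at least 2-fold lower (10.9% of windows) than in all genes (5.35%), with 6.21% in genes called at least 2-fold higher. The full cyclic AMP element TGACGTCA was in 2.69% of all windows, 0.91% of those of genes called at least 2-fold lower and 1.18% of those of genes called at least 2-fold higher.

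Receptors for cytokines and chemokines fell more often than they rose, with 24 of 59 tested lower and 8 higher. Both chains of the IL-18 receptor, IL18RAP and IL18R1, fell, by 1.98 ± 0.17 and 1.72 ± 0.11, as did the shared accessory chain IL1RAP, by 1.53 ± 0.23, and TNFRSF9 (4-1BB), by 1.63 ± 0.17. IL1R2, the decoy receptor that traps IL-1, moved against them. It was at 1.28, 2.29, 1.42 and 2.41 CPM with LPS and 5.34, 7.03, 6.23 and 8.28 with LPS+Dex, and rose by 1.86 ± 0.20 (adjusted p = 7.31e-06). TNFRSF21 (death receptor 6) rose by 1.27 ± 0.13. Among the 12 tested chemokine receptors CCR7, the homing receptor of mature dendritic cells, fell by 2.19 ± 0.23 and CCR1 by 1.79 ± 0.13. CX3CR1 fell by 2.44 ± 0.61 from a mean of 1.22 CPM, or by 3.12 without LPS+Dex replicate 4. ACKR3, a scavenger of CXCL12, rose by 1.06 ± 0.095.

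Toll-like receptors diverged. TLR2, the receptor for bacterial lipoproteins, was at 485, 520.3, 494 and 559 CPM with LPS and 1666, 1643, 1597 and 1631 with LPS+Dex. LPS alone had left it near its vehicle mean of 475, and with dexamethasone it rose by 1.67 ± 0.087 (adjusted p = 6.73e-09). TLR4, the receptor of LPS itself, was at 64.9, 46.9, 81.7 and 69.2 CPM with LPS and 20.5, 16, 18.9 and 17.8 with LPS+Dex, and fell by 1.85 ± 0.20 (adjusted p = 7.34e-06). Of the 13 tested receptors and co-receptors 7 fell and TLR2 alone rose. TLR8, TLR7 and TLR1 fell by 2.17 ± 0.19, 1.84 ± 0.27 and 1.72 ± 0.16, and the neighbours TLR10, TLR1 and TLR6 on chromosome 4, like TLR7 and TLR8 on chromosome X, fell together, each by at least 2-fold. The LPS co-receptors CD14 and LY96 (MD-2) had 95% intervals within 0.5 of 0. Downstream, IRAK3 (IRAK-M), an inhibitory kinase-like protein induced in tolerant macrophages, rose by 1.93 ± 0.075, from 22.5, 22.4, 22.7 and 24.7 CPM to 90.6, 87.1, 84.2 and 89.3, and IRAK1 by 0.55 ± 0.065. The intervals of the adaptor TICAM1 and of the kinase IRAK4 lay within 0.5 of 0.

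Changes of the central NF-kB genes were small. NFKBIA, which encodes the inhibitor IkB-alpha, was at 1762, 1983, 1799.9 and 1985 CPM with LPS and 2130.5, 2187, 2025 and 2343 with LPS+Dex, with a log2 change of 0.21 ± 0.11 (95% interval -0.03 to 0.44, adjusted p = 0.173). TNFAIP3 (A20), the deubiquitinase that ends NF-kB signalling, was at 1934, 1972, 2131 and 2129 and 2175, 2212, 2178 and 1982, with a change of 0.066 ± 0.089 (-0.12 to 0.26, adjusted p = 0.603). NFKB1 and RELA had changes of -0.22 ± 0.087 and -0.24 ± 0.11 (adjusted p = 0.074 and 0.119). None of these 4 genes was called in the fit of all 12 libraries, and all 4 intervals lay within 0.5 of 0. With only the 8 LPS and LPS+Dex libraries, NFKBIA passed as higher (change 0.19, adjusted p = 0.0302) and NFKB1 and RELA as lower (-0.23 and -0.26, adjusted p = 0.0313 and 0.0328). NFKB1 also passed as lower with DESeq2 (adjusted p = 0.0412) and with RLE scaling (adjusted p = 0.049), by 0.24 in both. Without LPS replicate 2, NFKB1 and RELA passed as lower, by 0.27 (adjusted p = 0.0272) and 0.31 (adjusted p = 0.0495), and NFKB1 also passed without vehicle replicate 2 or 3 (change -0.22 in both, adjusted p = 0.0451 and 0.0481). Of the 28 tested subunits and feedback genes 11 fell and 2 rose. REL fell by 1.07 ± 0.18, and TNIP3, an inhibitor that binds A20, fell by 2.80 ± 0.16, from 34.9, 27.7, 35.4 and 43.9 CPM to 6.19, 4.4, 5.26 and 4.52. Its relative TNIP2 rose by 1.10 ± 0.077, from 168 to 190.2 CPM to 358 to 394. The nuclear IkB proteins BCL3 and NFKBID fell by 1.49 ± 0.15 and 1.17 ± 0.12. TNFAIP2 fell by 1.48 ± 0.073, from 5737, 6031, 5703 and 6163 CPM to 2111, 2160.2, 2059.8 and 2169, and ZC3H12A (regnase-1), an RNase of cytokine mRNAs, rose by 0.48 ± 0.095.

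The interferon response was the list with the largest share of called members: 59 of 70 tested genes fell (84.3%) and none rose by edgeR or DESeq2 (1 gene, IRF3, had a rise with an unadjusted p under 0.05), with a median of -0.89. IFIT1 and IFIT2, which bind viral RNA, fell by 1.02 ± 0.12 and 1.19 ± 0.18. IFIT1 was at 264, 256, 249.8 and 268 CPM with LPS and 120.4, 113, 131 and 147 with LPS+Dex, so that it stayed far above its vehicle mean of 2.41 CPM. All 6 tested genes of the OAS and kinase group fell, with OASL and OAS3 lower by 1.24 ± 0.085 and 1.21 ± 0.23. All 6 tested guanylate-binding proteins fell too, from GBP1 at 1.70 ± 0.13 to GBP5 at 1.20 ± 0.093. They lie side by side on chromosome 1. The antiviral effector RSAD2 (viperin) was at 37.7, 29.8, 32.1 and 30.4 CPM with LPS and 7.81, 6.74, 10.1 and 10.8 with LPS+Dex, and fell by 1.88 ± 0.17. Of the 11 tested transcription factors of the response 8 fell, among them STAT4 by 1.84 ± 0.093, IRF8 by 1.10 ± 0.093 and IRF1, from 374, 366, 353 and 389 CPM to 176, 184, 188 and 195, by 1.00 ± 0.065 (adjusted p = 4.98e-08). BST2, LGALS9, DHX58 and IRF5 had intervals within 0.5 of 0. IRF3, at 0.32 ± 0.14 (adjusted p = 0.0982), passed as higher without LPS replicate 2 (change 0.42, adjusted p = 0.0304) and with only the 8 LPS and LPS+Dex libraries (0.31, adjusted p = 0.0346).

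Letters of the interferon-stimulated response element, GAAANNGAAA (TTTCNNTTTC on the other strand), were in 473 of 15640 windows (3.02%). They were in 45 of the 659 windows of genes called at least 2-fold lower (6.83%) and in 19 of the 676 windows of genes called at least 2-fold higher (2.81%). Matches of 3 interferon-response genes and of CXCL10 that fell are printed because they show the element in both orientations. Capitals mark the 10 bases of 1 match per gene. The lower-case flank of IFIT1 holds another full match, at -103 to -94 from the start site.
CXCL10, chr4:76023689-76023738, minus strand: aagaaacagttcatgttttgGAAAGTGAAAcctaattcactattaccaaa
IFIT1, chr10:89392487-89392536, plus strand: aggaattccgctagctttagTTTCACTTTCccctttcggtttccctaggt
GBP1, chr1:89065306-89065355, minus strand: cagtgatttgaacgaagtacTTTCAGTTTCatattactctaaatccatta
RSAD2, chr2:6877612-6877661, plus strand: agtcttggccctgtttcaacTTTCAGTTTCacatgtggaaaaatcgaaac

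**Figure D4:**
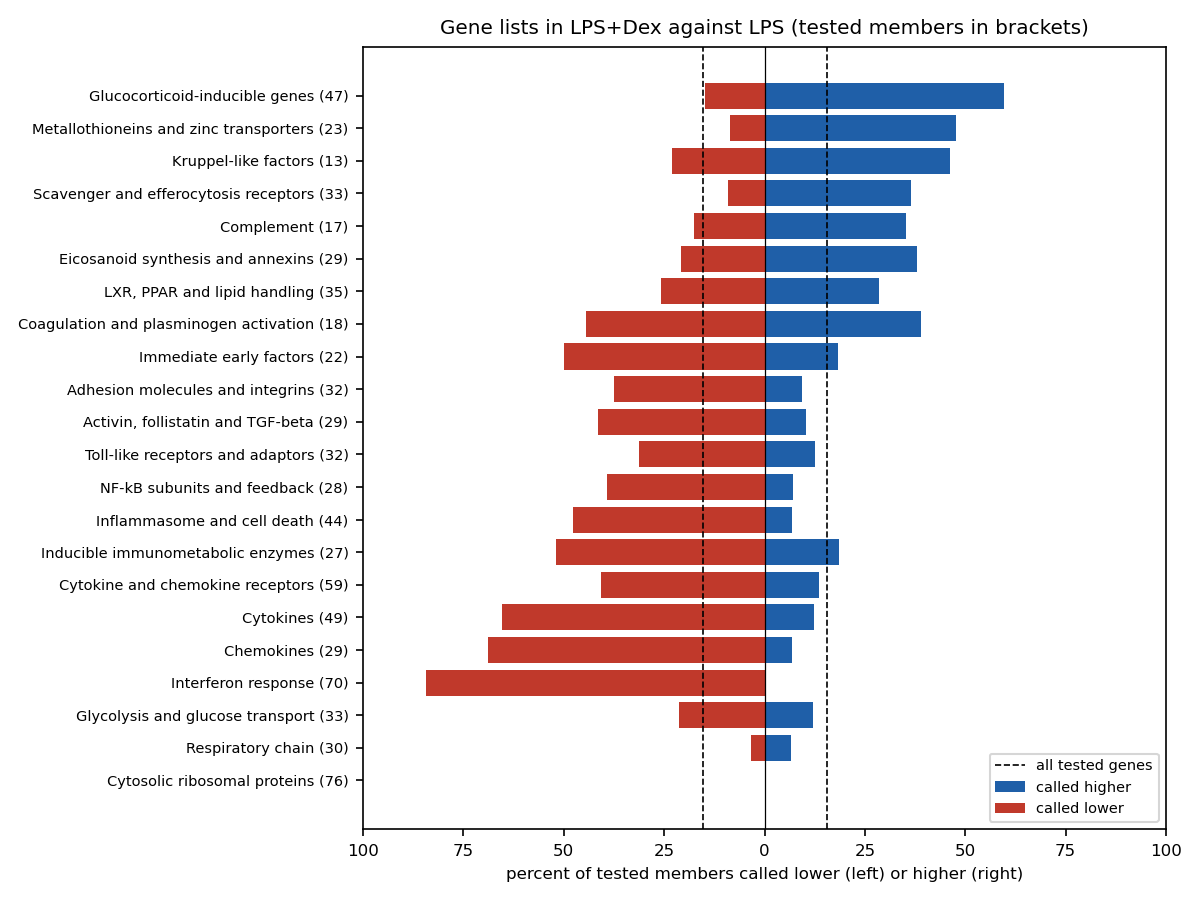
Percent of tested members of 22 gene lists that were called lower (red, left) or higher (blue, right) in LPS+Dex against LPS, with dashed lines at the shares of all tested genes (15.4% lower, 15.5% higher). Interferon-response genes reach 84.3% lower and 0% higher, glucocorticoid-inducible genes 59.6% higher, and no ribosomal protein gene was called.

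Immediate early genes split. Of 22 tested factors 11 fell and 4 rose. FOS was at 113, 136, 94.6 and 36.3 CPM with LPS and 251, 261, 257 and 179.6 with LPS+Dex, and rose by 1.32 ± 0.28; JUN rose by 0.88 ± 0.11. ATF3, a repressor induced by stress and by LPS, fell by 1.85 ± 0.095, from 127, 113, 136 and 125 CPM to 33.1, 34.4, 37.2 and 33.9, and FOSL2 and JUNB fell by 1.33 ± 0.11 and 0.73 ± 0.1. EGR2, EGR3, NR4A3 and IER3 fell by 2.39 ± 0.12, 1.44 ± 0.23, 1.92 ± 0.20 and 1.35 ± 0.18. Among the 14 tested MAP kinase phosphatases DUSP1 and DUSP7 rose at least 2-fold, DUSP7 by 1.13 ± 0.15. DUSP6, which acts on ERK and is itself an ERK target, fell by 1.37 ± 0.11, from 563, 560.1, 671 and 500.0 CPM to 248, 225, 236 and 179. DUSP4 had an interval within 0.5 of 0. Of the inhibitors of cytokine and growth factor signals, SOCS2 and ERRFI1 rose by 1.60 ± 0.35 and 1.07 ± 0.14, while SOCS3, the feedback inhibitor of IL-6 signalling, fell by 0.89 ± 0.12. RGS16 and RGS3, which end G protein signals, fell by 2.02 ± 0.074 and 1.99 ± 0.11, and RGS19 rose by 1.27 ± 0.071.

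In the prostaglandin pathway PTGS2, the inducible cyclooxygenase COX-2, was at 214, 126, 297 and 312 CPM with LPS and 30.2, 23.5, 27.8 and 22.2 with LPS+Dex. It fell by 3.19 ± 0.27 (adjusted p = 7.41e-07) and kept 10.9% of its LPS level. PLA2G4A, the cytosolic phospholipase that releases arachidonic acid and the next tested gene to PTGS2 on chromosome 1, fell by 1.92 ± 0.1, and the prostaglandin E2 receptors PTGER2 and PTGER4 by 1.24 ± 0.13 and 0.75 ± 0.13. The constitutive PTGS1 had an interval within 0.5 of 0. SLCO2A1, which carries prostaglandins into cells for breakdown, had counts of 1, 0, 1 and 1 with LPS and 36, 33, 32 and 32 with LPS+Dex, a ratio of 51.6 with a 95% counting interval of 17.6 to 250.1. In the leukotriene pathway, ALOX5AP and ALOX5 rose by 0.94 ± 0.11 and 0.56 ± 0.086.

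The clotting genes also divided. F3 (tissue factor), which starts coagulation, was at 22.2, 22.6, 21.8 and 35.8 CPM with LPS and 223, 229.9, 221 and 206 with LPS+Dex, and rose by 3.10 ± 0.15 (adjusted p = 3.15e-09). THBS1 (thrombospondin-1) rose by 3.10 ± 0.23, from 27.4 to 50.1 CPM to 256 to 387. TFPI, the inhibitor of the tissue factor pathway, rose by 0.79 ± 0.12, and its relative TFPI2 fell by 1.97 ± 0.084. On the side of clot breakdown, the activators PLAU and PLAT fell by 1.66 ± 0.12 and 1.20 ± 0.14 and the inhibitor SERPINB2 by 1.97 ± 0.32. Over the list 7 of 18 tested genes rose and 8 fell.

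Adhesion genes fell more often than they rose, with 12 of 32 tested lower and 3 higher. VCAM1, the adhesion molecule that holds leukocytes, had the largest fall of the genes with at least 5 CPM. It was at 32.4, 25.7, 30.3 and 33.7 CPM with LPS, 2.06, 2.15, 2.6 and 1.91 with LPS+Dex and 1.84, 1.69, 2.7 and 3.1 with vehicle. All LPS+Dex libraries lay within the range of the vehicle libraries and far below the LPS libraries, and VCAM1 fell by 3.81 ± 0.18 (adjusted p = 3.15e-09). CD44, the hyaluronan receptor, fell by 1.22 ± 0.093, and the integrins ITGA2, ITGB8, ITGA1 and ITGA6 by 2.45 ± 0.50, 2.24 ± 0.17, 1.87 ± 0.19 and 1.75 ± 0.28. SELPLG, the ligand of the selectins, rose by 1.72 ± 0.11. Of the matrix proteases MMP19 and MMP7 rose by 1.56 ± 0.11 and 1.01 ± 0.12, and MMP3 and MMP12 fell by 1.97 ± 0.22 and 0.97 ± 0.14. MMP9, the most abundant of them in reads, fell by only 0.22 ± 0.066 (adjusted p = 0.0191), from 9793, 11034, 10438 and 10132 CPM to 9111, 8832, 8468 and 9009, yet this was among the largest losses in CPM. It was not called without LPS replicate 2 (change -0.19, adjusted p = 0.0516) or LPS+Dex replicate 3 (-0.21, adjusted p = 0.0589). RECK, a membrane inhibitor of these proteases, rose by 1.24 ± 0.14.

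In the activin and TGF-beta list 12 of 29 tested genes fell and 3 rose. INHBA, the subunit of activin A, was at 6.56, 4, 8.34 and 6.29 CPM with LPS and 1.06, 1.05, 1.46 and 1.36 with LPS+Dex, and fell by 2.36 ± 0.28, while its antagonist FSTL3 was among the largest risers. TGFB3 fell by 2.73 ± 0.10, from 32.8, 35.6, 39.2 and 32.3 CPM to 5.59, 5.12, 5.53 and 4.79, and TGFB1 had an interval within 0.5 of 0. ACVR2A, a receptor of activin, and the signal transducers SMAD3 and SMAD7 fell by 1.14 ± 0.092, 1.07 ± 0.16 and 1.14 ± 0.11.

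Among 15 tested costimulatory and related receptors 7 fell and 2 rose. CD80 and CD86, which costimulate T cells, fell by 1.70 ± 0.11 and 2.02 ± 0.15, CD274 (PD-L1) by 2.31 ± 0.15 and SLAMF7 by 2.27 ± 0.12, whereas SLAMF1 of the same family rose. CD80 was at 47, 39.5, 48.7 and 49.4 CPM with LPS and 15, 13.7, 15.3 and 13 with LPS+Dex. Of 6 tested genes of MHC class II none fell (0 also at an unadjusted p under 0.05 and by DESeq2) and 1 rose: CIITA, their master regulator, by 1.02 ± 0.29 from a mean of 0.587 CPM. CIITA was not called without LPS replicate 4 (0.96, adjusted p = 0.0501) or LPS+Dex replicate 2 (0.84, adjusted p = 0.0677). In the inflammasome and cell death list 21 of 44 tested genes fell and 3 rose. The inflammatory caspases CASP5 and CASP4 fell by 1.62 ± 0.11 and 0.79 ± 0.067, the sensor NOD2 by 1.50 ± 0.15 and the survival gene BCL2A1 by 1.14 ± 0.096, and NLRP3 had an interval within 0.5 of 0.

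Of 27 tested enzymes of activated macrophage metabolism 14 fell and 5 rose. ACOD1, which makes itaconate, was at 107, 116, 109 and 179.5 CPM with LPS and 18.3, 17.3, 16.9 and 22.2 with LPS+Dex, and fell by 2.77 ± 0.17 (adjusted p = 2.95e-08). KMO of the kynurenine pathway fell by 1.81 ± 0.078 and PFKFB3, an activator of glycolysis, by 1.34 ± 0.12. CD38, an enzyme that consumes NAD, rose by 2.55 ± 0.19, from 3.46, 4.26, 2.93 and 4.57 CPM to 20.1, 22.6, 25.7 and 20.5, and NCF1, a subunit of the NADPH oxidase, by 1.63 ± 0.10. Glutathione genes diverged. GCLC, the catalytic subunit of the enzyme that starts glutathione synthesis, was at 169, 163, 171 and 189 CPM with LPS and 761, 713, 741 and 626 with LPS+Dex, and rose by 2.04 ± 0.078 (adjusted p = 5.46e-10). Its partner subunit GCLM fell by 0.90 ± 0.12, and the NRF2 targets HMOX1, SLC7A11 and TXNRD1 fell by 1.65 ± 0.089, 1.61 ± 0.31 and 1.39 ± 0.23. Of 20 tested genes of this list 11 fell and 3 rose. EGLN1, the main oxygen sensor that marks HIF for destruction, was at 2.83, 1.25, 2.57 and 3.32 CPM with LPS and 36.9, 32, 36.2 and 29.8 with LPS+Dex, and rose by 3.74 ± 0.23 (adjusted p = 3.53e-08).

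Lipid genes rose and fell in similar numbers, 10 and 9 of 35 tested. LPL (lipoprotein lipase) was at 71, 48.3, 89.2 and 121 CPM with LPS and 614, 485, 553 and 446 with LPS+Dex, and rose by 2.67 ± 0.27. PPARG, the nuclear receptor of lipid storage, rose by 1.54 ± 0.1, from 22 to 25.8 CPM to 63 to 81.9. The cholesterol exporter ABCA1 fell by 1.46 ± 0.20 and G0S2, an inhibitor of fat breakdown, by 1.30 ± 0.16. The adjacent desaturases FADS1 and FADS2 on chromosome 11 rose by 2.37 ± 0.22 and 2.30 ± 0.28, while most sterol synthesis genes were not called (3 of 20 tested rose and 3 fell). In purinergic signalling the adenosine receptor ADORA3 rose by 2.50 ± 0.17, although its reads may be shared with TMIGD3, which spans it, and DPP4, which binds adenosine deaminase, rose by 2.41 ± 0.28. ADORA2A fell by 1.03 ± 0.071 and P2RX7, the ATP receptor of inflammasome activation, by 2.06 ± 0.10.

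Lists of basic cell functions differed in how many members were called. None of 76 tested cytosolic ribosomal protein genes was called by edgeR or by DESeq2, and edgeR gave 0 at an unadjusted p under 0.05, with a median of 0.12, and for 52 of them the 95% interval lay within 0.5 of 0. In the respiratory chain 2 of 30 tested genes rose and 1 fell, with 20 of the rest inside that limit. Of 33 tested genes of glycolysis and glucose transport 4 rose and 7 fell, 16 of the rest were inside the limit, and PFKFB3 alone was called with an at least 2-fold change. Of 30 tested factors of ribosome biogenesis 10 fell (33.3%) and 1 rose. Without LPS replicate 4, only 4 of the 30 were called lower, beside 1676 of all 13429 genes tested in that fit. Of 37 cell cycle genes 10 fell and 6 rose, and of 30 lysosomal genes 7 fell and 6 rose. In these 3 lists 1 gene, CDKN1A, was called with an at least 2-fold change. Of 12 macrophage markers 2 rose and 2 fell, each by less than 0.5, and CD14, ITGAM and CSF1R had intervals within 0.5 of 0. The 3 tested fibroblast and 4 tested endothelial markers included some rises: COL1A1 and PDGFRA rose by 1.50 ± 0.15 and 1.15 ± 0.20, and TEK and KDR by 2.78 ± 0.37 and 2.26 ± 0.32, from a mean of 0.147 CPM for TEK and 8.54 CPM for COL1A1 with LPS. The interval of PECAM1, also an endothelial marker, lay within 0.5 of 0.

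By the change in CPM rather than in fold, the 5 largest gains were those of SMAP2, MFSD2A, DENND3, FKBP5 and PABPC4. SMAP2, an ARF GTPase regulator, was at 1891, 1782, 1998 and 2039 CPM with LPS and 5308, 4817, 5448 and 4717 with LPS+Dex. MFSD2A, a lysolipid transporter, rose from 5005, 5336, 5328 and 5573 CPM to 7915, 7522, 7439 and 7969, DENND3, a RAB exchange factor, by 1.93 ± 0.073 and PABPC4, a poly(A)-binding protein, by 0.79 ± 0.058. The groups of all 5 genes were separate. The 5 largest losses were those of IL1B, CXCL8, TNFAIP2, CCL3 and MMP9. All but TNFAIP2 encode secreted proteins.

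The genes that moved lay next to each other in several places. Among 13130 tested genes placed on chromosomes (13106 consecutive pairs), 549 called at least 2-fold higher formed 71 pairs of direct neighbours and 534 called at least 2-fold lower formed 101. At least 4-fold, 175 genes called higher formed 18 pairs and 80 called lower formed 4. How many pairs the order of genes would give by itself was not tested. The rising pairs included FKBP5 with ARMC12, the metallothioneins from MT2A (chromosome 16, start 56608584) to MT1X (end 56684196), and C1QC with C1QB on chromosome 1 (22643633 to 22648108 and 22653236 to 22661637). Of the falling pairs, IL1A to IL1RN, CXCL9 to CXCL11, TLR10 to TLR6 and GBP3 to GBP5 are families of related genes, and PTGS2 with PLA2G4A is a further example. How many reads similar neighbours share was not tested.

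Set beside vehicle, the genes lowered by dexamethasone ended at different points. VCAM1 and CCL2 ended near vehicle, with means of 2.18 and 4.06 CPM against 2.33 and 3.5. IL1A ended at 3.7 CPM against 2.1, and all 4 of its LPS+Dex libraries lay above the vehicle libraries, which were at 2.35, 2.31, 2.55 and 1.17 CPM. IL1RN, RXFP1, FCAMR and TLR4 ended below vehicle, with 25.1, 3.09, 3.55 and 18.3 CPM against 49.2, 5.22, 9.13 and 41.5. IL6, CXCL8, TNF and CXCL10 stayed well above vehicle, with 5.05, 3034, 769.9 and 35.9 CPM against 0.291, 583, 53.4 and 0.371. No test of LPS+Dex against vehicle was made. RXFP1, the relaxin receptor, and FCAMR, a receptor for IgA and IgM, fell by 2.94 ± 0.14 and 3.05 ± 0.11 between LPS and LPS+Dex and complete the 10 largest falls with VCAM1, IL1A, CCL2, PTGS2, CSF2, TNIP3, IL1RN and ACOD1.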

How the data were processed

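Messenger RNA was measured in 12 RNA-seq libraries, 4 each of vehicle, LPS and LPS+Dex, of which the 8 LPS and LPS+Dex libraries enter the comparison. The authors deposited raw read counts per Ensembl gene, 1 column per library, with no scaling or pooling, per the file headers. Per the labels' protocols, libraries were stranded and poly(A)-selected, and the build GRCh38/hg38 and the tools featureCounts 2.0.1, STAR 2.7.10a and DESeq2 1.26.0 are named in the submitters' processing notes. What each tool did, which features and strand were counted, and how multiply matching reads were handled is not given in the sources used here, so reads shared by close paralogs or by overlapping genes are uncertain. Symbols were found for 20407 of 20453 genes, and 46 had none.

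Counts were tested here with edgeR 4.0.16 in R 4.3.3: filterByExpr (minimum count 10, minimum total 15), TMM scaling, and a 2-sided quasi-likelihood test on all 12 libraries with treatment as the only term. P-values were Benjamini-Hochberg adjusted over the 13327 tested genes and called under 0.05. Scaling makes each change relative to the average gene. CPM used TMM-scaled library sizes and is not corrected for length, so levels are compared within a gene only. Intervals of log2 changes have a 95% level, and those of count ratios are exact Poisson intervals covering counting error only. Equal replicate numbers were not taken as pairs, since the labels do not say that they belong together. Deviations from the group means had a correlation over 0.1 in 7 of 12 same-numbered pairs of libraries. The same held for 13 of 36 pairs with different numbers.

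The comparison, the 53 gene lists (1375 genes found, 1217 tested) and the genes named were chosen with earlier results of these data known. Named are a panel of 36 known targets, the 10 largest rises and falls with a mean of at least 5 CPM and no overlap, up to 4 rises and falls per role of a list, the 5 largest gains and losses in CPM, up to 3 members per list with an interval within 0.5 of 0, and the cell type markers. GCLM, GBP5, MT1F, TLR6, TLR10, IL36B, C1QA, CD14, LY96, TICAM1, BST2, IRF3, TGFB1, PER3, TRIM63 and MAP3K6 were added after their values were seen. Alternatives tried were a replicate block, DESeq2 1.42.0, other scalings and filters, only the 8 libraries, and leaving out each library. Ribosome footprints were not used here, and some genes that the rule names are not reported here.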

Additional observations from a re-analysis of the deposited data

Results flagged for a closer look

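Among 498 groups of 4 libraries (each gene described here with LPS and with LPS+Dex, and the library totals), 28 had a highest or lowest library that stood farther from the other 3 than Dixon's 95% limit allows. Chance alone would give about 1 in 20 such groups, and the share found was 5.62%. The values were as follows, in CPM of the library named, and no cause was tested. LPS replicate 2 had the highest value of its group for IL15 (10.9), and the lowest value of its group for SLCO2A1 (0) and TLR7 (4.99). LPS replicate 3 had the highest value of its group for IL1B (17540.0), and the lowest value of its group for LY96 (15.9). LPS replicate 4 had the highest value of its group for ACOD1 (179.5), F3 (35.8), IRAK3 (24.7), KMO (85.9), PHKA1 (2.67), RP1L1 (2.11) and ZBTB16 (1.51). LPS+Dex replicate 1 had the highest value of its group for CCR1 (6.85), and the lowest value of its group for FPR1 (0.957). LPS+Dex replicate 2 had the lowest value of its group for IL1A (2.87). LPS+Dex replicate 3 had the highest value of its group for DPP4 (8.29), KLF15 (2.98), OAS3 (202) and TNFSF13 (2.66). LPS+Dex replicate 4 had the highest value of its group for CCR7 (5.72), IL15 (27.3), JUNB (268) and MMP19 (271), and the lowest value of its group for ACKR3 (235), ADORA3 (3.05), FOS (179.6), PER2 (35.1) and TNFAIP3 (1982). LPS+Dex replicate 4 held 9 of these values and LPS replicate 4 held 7, all of the latter on the high side.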

How the results depend on the processing

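The counts of called genes stayed within 1.5 times those reported in every alternative run. They were 2451 higher and 2407 lower with a replicate block, 2032 and 2411 with DESeq2, 1902 and 2221 with RLE scaling, 2105 and 2002 with upper quartile scaling, 1963 and 1979 with no filter, 1987 and 1980 with a mean of at least 1 CPM, and 2327 and 2573 with only the 8 libraries. Leaving out each library in turn gave 1662 to 2300 higher and 1642 to 2300 lower, and leaving out the 3 libraries numbered 4 together gave 1395 and 1434, with 2747 of the 4123 calls kept; these fits have fewer samples. Calls of at least 2-fold numbered 454 to 617 upwards and 457 to 607 downwards. No reported gene reversed its direction where it was called in the main or the alternative fit. Changes near 0 that were not called could switch sign, as for PER3 (-0.04 with all libraries, 0.06 without LPS replicate 4). The replicate block kept 4083 of the 4123 calls and also called CCL20, NFKB1, RELA, IRF3 and AZU1 (adjusted p = 0.014, 0.0261, 0.0266, 0.0332 and 0.038). The labels do not say whether equal replicate numbers pair the libraries. Correlations of deviations from the group means had a median of 0.21 (lowest -0.34) over 12 same-numbered pairs. Over 36 pairs with different numbers the median was -0.04 (lowest -0.65). Between LPS and LPS+Dex alone the medians were 0.09 over 4 same-numbered pairs and -0.02 over 12 others.

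Small counts within lists were less firm. Over the alternatives, reported counts moved by more than 1.5 times for members called higher among the receptors (5 to 10), chemokines (1 to 3), tumour necrosis factor superfamily (0 to 1), MHC class II (0 to 1), adhesion genes (1 to 3), and inflammasome and cell death genes (2 to 6). They also moved for members called lower among the chaperones (0 to 3), scavenger and efferocytosis genes (1 to 5), lipid genes (5 to 11) and ribosome biogenesis (3 to 12). Both directions moved for the zinc transporters (3 to 6 higher, 0 to 6 lower), sterol genes (2 to 5 and 1 to 5), glycolysis (4 to 7 and 4 to 8), respiratory chain (0 to 5 and 0 to 1), lysosome (2 to 7 and 4 to 9) and macrophage markers (1 to 2 and 0 to 2), and for granulocyte markers called higher (0 to 4). Without the 3 libraries numbered 4, NR3C1 (-0.96, adjusted p = 0.0558), PER2 (-0.30, 0.125), CIITA (1.04, 0.0726), IFNB1 (-0.72, 0.116), MMP9 (-0.24, 0.0673) and TNFSF13 (0.65, 0.0579) were no longer called; the cause was not tested. With 4 libraries a group, genes under about 1 CPM rest on few counts.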
